A study of Sus scrofa with 2 samples.

Results

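The calpains are a family of calcium-dependent cysteine proteases, and calpastatin is the specific endogenous inhibitor of the ubiquitous μ-calpain and m-calpain. Unlike the proteasome, calpains cut their substrates at a limited number of positions, and in muscle they release or trim proteins of the sarcomere and the cytoskeleton. The ubiquitous μ-calpain and m-calpain each consist of a catalytic subunit (CAPN1 or CAPN2) and a shared regulatory subunit (CAPNS1). CAPN3, also called p94, is the calpain of skeletal muscle, binds titin, and is mutated in a recessive form of human limb-girdle muscular dystrophy. After slaughter, the balance between calpains and calpastatin is known for its relation to the tenderness of meat.

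The members were the unigenes (assembled transcripts) whose match in the nr protein database carried a pig RefSeq accession of CAST, CAPNS1 or a numbered CAPN gene. This rule took 6 of the 65535 unigenes of the deposited table. They belonged to 4 of the 16 genes of the family listed for the pig genome, with 1 unigene of CAPN2, 2 of CAPN3, 2 of CAPN5 and 1 of CAPN6. The other 12 genes, among them CAST, CAPNS1 and CAPN1, were matched by 0 unigenes under the rule and are not analysed here. The ratio of calpain to calpastatin, the balance of interest for meat, is therefore not given. Of the 17244 unigenes with a RefSeq match, 11546 carried an accession outside the list of pig accessions used for gene symbols, and a further 4125 were matched to an entry of another database. The paper reports a larger number of assembled unigenes than the deposited table holds. A gene that is not matched here may therefore still be in the assembly.

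The libraries were made from the longissimus dorsi muscle (LM) of male pigs slaughtered at 25 days of age without a treatment named in the labels. One came from 3 full-sibs of Yorkshire, a lean and fast-growing breed, and the other from 3 full-sibs of Shaziling, a Chinese indigenous breed with high intramuscular fat. The table has 1 column per breed, so the spread between pigs is unknown, none of the differences has a replicate check, and breed and litter cannot be told apart. The titles and column names gave the breeds, whereas another label of the samples attaches the indigenous class to Yorkshire and the lean class to Shaziling. The library totals were 33949238 reads for Yorkshire and 28305925 for Shaziling. Reads counted on the 65535 unigenes came to 29537057 for Yorkshire (87.0%) and 20575805 for Shaziling (72.7%). The part of the reads that is absent is therefore unequal, and larger for Shaziling. Shares of unigenes called and percentiles given below cover the deposited unigenes only. Of the 8 muscle markers, 2 were found (CASQ1 and MYLPF), with a summed RPKM of 1106 in Yorkshire and 3331 in Shaziling. Both markers were higher in Shaziling, but to an unequal degree. CASQ1 was at 781 RPKM in Yorkshire and 1463 RPKM in Shaziling, a 1.87-fold difference. MYLPF, on a unigene of only 295 bp, was at 325 and 1867 RPKM, a 5.75-fold difference. Their sum therefore does not give a common fold difference for muscle transcripts.

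Of the reads on these 6 unigenes, most were on CAPN3. The 6 unigenes received 18997 Yorkshire reads and 22013 Shaziling reads, of which 81.4% and 79.3%, respectively, were on CAPN3. In RPKM (reads scaled by unigene length and by library size), the order of the unigenes was the same in both libraries. Both CAPN3 unigenes stood highest, followed by CAPN2, CAPN6 and both CAPN5 unigenes. The exact 95% Poisson intervals of neighbours in this order did not overlap within a library, except for the CAPN5 pair. These intervals cover counting error only.

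**Figure D1:**
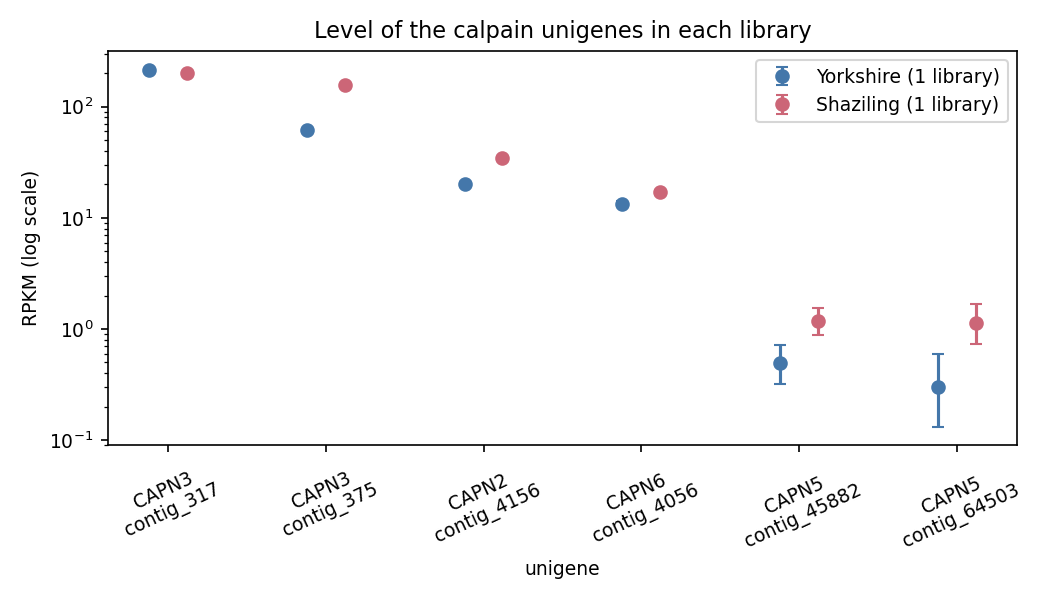
RPKM (log axis) of the 6 calpain unigenes in the Yorkshire and the Shaziling library, 1 library each, with exact 95% Poisson intervals that cover counting error only and are smaller than the points for CAPN3, CAPN2 and CAPN6. CAPN3 contig_317 sits near 200 in both libraries (216 and 203), while contig_375 of the same gene is at 61.5 in Yorkshire and at 157 in Shaziling.

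The unigenes of CAPN3 did not give the same difference between the libraries. The unigene contig_317 has 1568 bp and was matched to a CAPN3 protein of 821 amino acids, whose coding sequence would take 2463 bases. In Yorkshire it was counted with 11492 reads (RPKM 216), and Shaziling gave 8999 reads (RPKM 203). By RPKM it ranked 97 of 65535 unigenes in Yorkshire and 192 in Shaziling, among the most abundant transcripts of the muscle. Shaziling divided by Yorkshire came to 0.939 (exact 95% interval 0.914 to 0.966).

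The unigene contig_375 has 1905 bp and was matched to a CAPN3 protein of 816 amino acids. Yorkshire gave 3976 reads for it (RPKM 61.5, rank 367) and Shaziling 8449 reads (RPKM 157, rank 240). The ratio was 2.55 (exact 95% interval 2.45 to 2.65). Thus, contig_317 was slightly higher in the Yorkshire library, and contig_375 was higher in the Shaziling library. In bulk muscle, fewer cells of a type and less RNA per cell cannot be told apart.

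Reads of both unigenes within a library can be compared without any scaling between libraries. In Yorkshire, the RPKM of contig_317 was 3.51 times that of contig_375, and in Shaziling it was 1.29 times. The change of contig_375 relative to contig_317 was 2.71-fold (exact 95% interval of the odds ratio 2.59 to 2.84, counting error only). Summed over both unigenes, CAPN3 received 15468 Yorkshire reads and 17448 Shaziling reads, a ratio of 1.35 with the deposited totals. Under the 5 other scalings of the libraries that were tried, this summed ratio lay between 0.822 and 1.06. The summed length of 3473 bp is longer than the coding sequence. Each unigene alone is shorter than it, and which stretch or isoform of CAPN3 each unigene covers cannot be read from the table.

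Unequal ratios between unigenes of 1 gene were not rare in this assembly. Among the 138 genes with exactly 2 unigenes of 100 or more reads each, the absolute difference of their log2 ratios had a median of 0.62 and quartiles of 0.30 and 1.28. CAPN3, with a difference of 1.44, was among the 27 genes (19.6%) with a difference of this size or more. With 1000 or more reads on each unigene, 11 genes remained, and CAPN3 had the largest difference of these 11.

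**Figure D2:**
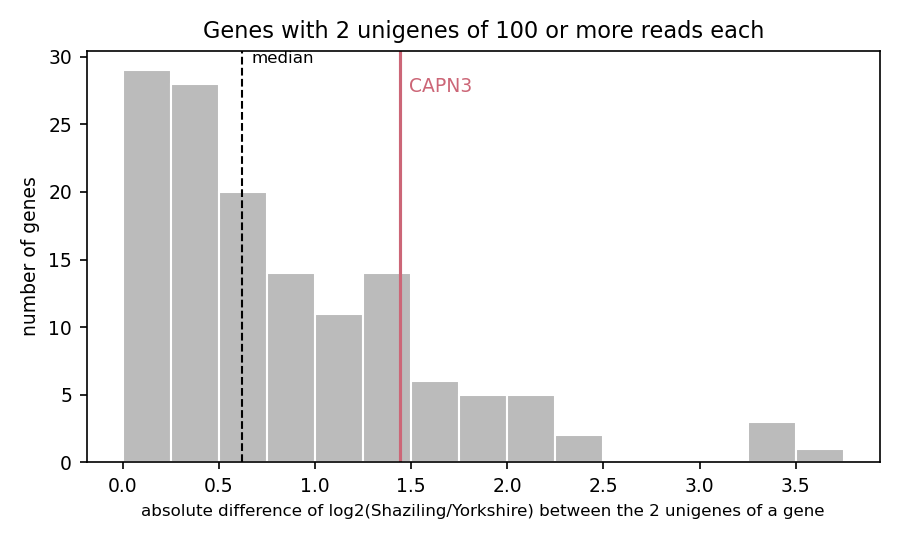
Histogram of the absolute difference of log2(Shaziling/Yorkshire) between the unigenes of a gene (x axis) for the 138 genes with exactly 2 unigenes of 100 or more reads each (y axis, number of genes). The solid line marks CAPN3 at 1.44 and the dashed line the median of 0.62.

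CAPN2, the catalytic subunit of m-calpain, was represented by contig_4156 (3123 bp), which is longer than the 2100 coding bases of its protein of 700 amino acids. Yorkshire gave 2121 reads for it (RPKM 20.005) and Shaziling 3038 reads (RPKM 34.4). The ratio was 1.72 (exact 95% interval 1.62 to 1.82), below the threshold of 2-fold. Relative to CAPN2 in the same library, CAPN3 contig_317 was 10.8 times as abundant in Yorkshire and 5.90 times in Shaziling. For CAPN3 contig_375, these values were 3.07 and 4.56. Thus the ratio of CAPN3 to CAPN2 was lower in Shaziling than in Yorkshire with contig_317 (odds ratio 0.547, exact 95% interval 0.514 to 0.582) and higher with contig_375 (odds ratio 1.48, exact 95% interval 1.39 to 1.59).

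CAPN6, a calpain that lacks the catalytic cysteine, was represented by contig_4056 (3024 bp, 641 amino acids in the matched protein). Its 1374 Yorkshire reads corresponded to an RPKM of 13.4, and its 1450 Shaziling reads to 16.9. The deposited values gave a ratio of 1.27 (exact 95% interval 1.17 to 1.36), whereas the ratio was below 1 under each of the 5 other scalings of the libraries that were tried, between 0.769 and 0.991. Relative to CAPN2, CAPN6 was at 0.669 in Yorkshire and 0.493 in Shaziling, an odds ratio of 0.737 (exact 95% interval 0.671 to 0.809), which does not depend on the scaling.

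CAPN5, a calpain without the calmodulin-like domain of the classical calpains, had few reads in both libraries. The unigene contig_45882 (1546 bp) had 26 Yorkshire reads (RPKM 0.495) and 52 Shaziling reads (RPKM 1.19). The unigene contig_64503 (780 bp) had 8 Yorkshire reads (RPKM 0.302) and 25 Shaziling reads (RPKM 1.13). Both were matched to the same protein of 640 amino acids. Their ratios were 2.40 (exact 95% interval 1.47 to 4.002) and 3.75 (exact 95% interval 1.64 to 9.61), and unlike the CAPN3 pair, they did not differ beyond counting error (odds ratio 1.56, exact 95% interval 0.577 to 4.56). Together they received 34 Yorkshire and 77 Shaziling reads, a ratio of 2.72.

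For each of the 65535 unigenes, the reads of the libraries were set against the library totals in a two-sided exact binomial test, with p-values adjusted by the Benjamini-Hochberg method; it is a test between single libraries and says nothing of the variation within a breed. At a ratio of at least 2 in either direction and an adjusted p of at most 0.05, 3 of the 6 calpain unigenes were called higher in Shaziling, namely CAPN3 contig_375, CAPN5 contig_45882 (adjusted p = 0.00122) and CAPN5 contig_64503 (adjusted p = 0.00324). Of all unigenes, 24.1% were called higher in Shaziling, and 30.5% of the 13671 unigenes with 100 or more reads. In the other direction, 0 of the 6 were called, against 7.08% of all unigenes and 5.44% of those with 100 or more reads. The median log2 ratio of the 6 unigenes was 1.02, beside 0.51 over all unigenes. The 6 unigenes stand for 4 genes, and both CAPN5 calls are of the same gene. When the reads of the unigenes of a gene were summed, 1 of the 4 genes (CAPN5) was called with the deposited totals. The share of all genes called after summing is not given here. The summed CAPN5 ratio of 2.72 lay between 1.65 and 2.13 under the 5 other scalings of the libraries that were tried.

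The calls depended on the scaling of the libraries. The 2 unigenes with the most Yorkshire reads, taken here as mitochondrial, held 15753500 reads in Yorkshire and 3345727 in Shaziling. Leaving them out of the totals multiplied the ratios by 0.608. The 4 other scalings, computed from the deposited unigenes only, multiplied them by 0.737 to 0.783. Reads absent from the deposited unigenes were a larger part of the Shaziling library, and their effect on these scalings was not tested. The scaling to a median log2 ratio of 0 took the median over unigenes with 10 or more RPKM in both libraries, not over all unigenes. CAPN3 contig_375 and CAPN5 contig_45882 were not called under any of these 5 scalings. CAPN5 contig_64503, with 8 and 25 reads, was called under 4 of them and not without the mitochondrial unigenes. Of all unigenes, 10.9% to 16.1% were called higher in Shaziling under these scalings. No calpain unigene was called higher in Yorkshire, beside 10.9% to 17.5% of all unigenes. The directions of both CAPN3 unigenes were the same under each scaling, from 0.571 to 0.939 for contig_317 and from 1.55 to 2.55 for contig_375. Among the 13671 unigenes with 100 or more reads, whose order is not affected by scaling, the ratio of contig_317 was at the 25.2 percentile and that of contig_375 at the 79.4 percentile. CAPN2 was at the 61.9 percentile and CAPN6 at the 43.2 percentile.

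**Figure D3:**
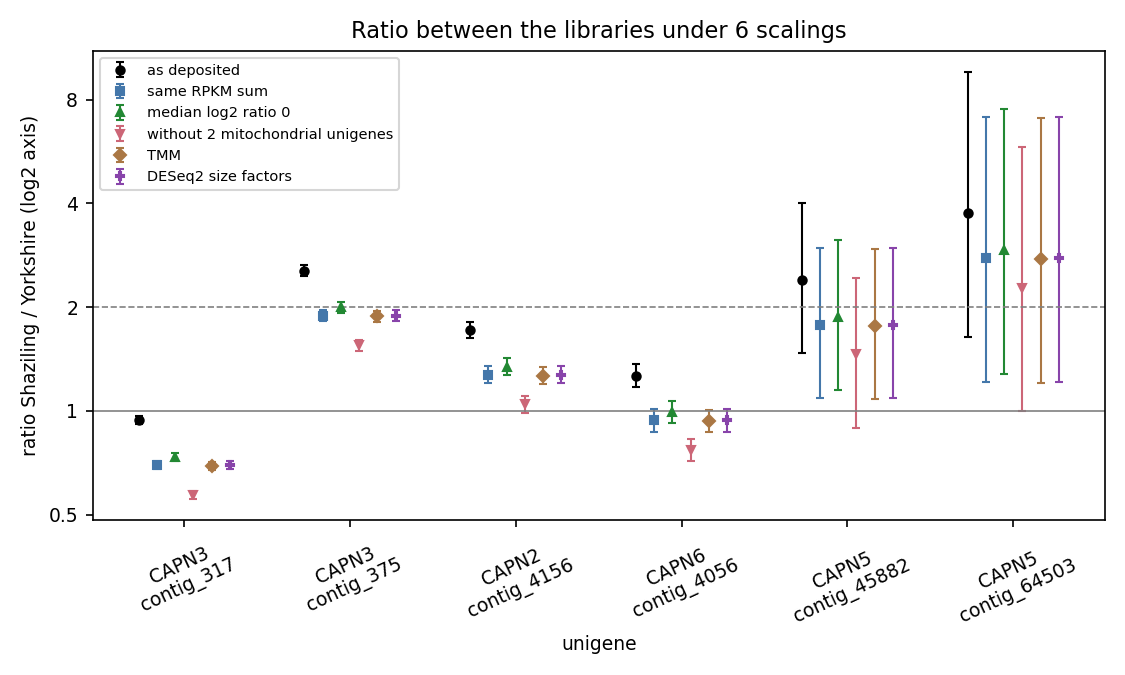
Ratio of Shaziling to Yorkshire (log2 axis) of the 6 calpain unigenes with the library totals of the deposited RPKM values and with 5 other scalings; bars are exact 95% intervals for counting error, the solid line marks 1 and the dashed line 2. CAPN3 contig_317 is below 1 and contig_375 above 1 under each scaling, and CAPN6 is above 1 only with the deposited values (1.27).

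Markers of other cell types also differed between the libraries. The erythroid markers that were found (2 of 5, HBB and ALAS2) had a summed RPKM of 18.9 in Yorkshire and 212 in Shaziling. The 3 of 6 endothelial markers had sums of 35.2 and 58.5, with the vessel and platelet protein VWF at 0.521 and 10.5. The only leukocyte marker found (1 of 6), the macrophage receptor CSF1R, had an RPKM of 0.619 and 3.89. The 2 of 6 adipocyte markers had sums of 27.5 and 52.1, and the 4 of 6 fibroblast markers 721 and 685. These sums are of deposited RPKM values. Of the 4 fibroblast markers, 2 had a ratio above 1 with the deposited totals and 0 under each of the 5 other scalings. Of the 3 endothelial markers, 1 stayed above 1 without the mitochondrial unigenes. The erythroid, leukocyte and adipocyte markers found stayed above 1 under each scaling. None of the markers found was at 0. Their part in the calpain values was not tested.

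Other genes of muscle proteolysis were examined beside the calpains, as far as a unigene carried their accession. Of 58 listed genes, 30 were found. A higher level in Shaziling was called for 13 of them (43.3%), in Yorkshire for 0, and the median log2 ratio was 0.98, beside the 24.1% called higher in Shaziling and the median of 0.51 over all unigenes, and 30.5% with 100 or more reads. Under the other scalings, 6 or 7 of the 30 were called higher in Shaziling, beside 10.9% to 16.1% of all unigenes.

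Among proteins that calpains are known to cut or that lie in the sarcomere beside them, 4 of 7 were called higher in Shaziling and 0 in Yorkshire, with a median log2 ratio of 1.32. With so few genes, this and the following counts are descriptions beside the 24.1% and 7.08% of all unigenes called. The calls in this and the next paragraphs were made with the deposited totals. The other scalings multiplied each ratio by 0.608 to 0.783, so ratios only slightly above 2 fell below the threshold. Desmin (DES), the intermediate filament around the Z-disc, was at 737 RPKM in Yorkshire and 1838 RPKM in Shaziling, a ratio of 2.49. FLNC, a filamin at the Z-disc and the membrane, was at 58.4 and 716 RPKM, a ratio of 12.3 for a unigene of 4418 bp. The thick filament protein MYBPC2 had a ratio of 3.31. The Z-disc crosslinker ACTN2, at 605 and 1020.4 RPKM (ratio 1.69), was not called. CMYA5, a large protein of the sarcomere and the costamere that is named here after its values were seen, ran the other way, at 246 and 169.9 RPKM, a ratio of 0.692 that was not called.

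The cathepsins, proteases that mostly act in the lysosome, were called higher in Shaziling in 6 of 9 cases, with a median log2 ratio of 1.12, beside 24.1% and 0.51 for all unigenes. All 9 had a ratio above 1 with the deposited totals and when the median log2 ratio was set to 0, and 8 of the 9 under the 4 other scalings. For CTSB, 21.8 RPKM in Yorkshire and 45.5 RPKM in Shaziling gave a ratio of 2.09. CTSV had a ratio of 2.18, while CTSC and CTSD, with 1.86 and 1.83, were not called. The cathepsin inhibitor cystatin C (CST3), the only cystatin found of 5, was at 8.94 and 43.5 RPKM, a ratio of 4.87.

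Of the ubiquitin ligases of muscle, 1 of 7 was called higher in Shaziling, a share that is not above the 24.1% of all unigenes, with a median log2 ratio of 0.74. TRIM63 (MuRF1), which marks sarcomeric proteins for the proteasome, was at 52.1 RPKM in Yorkshire and 92.1 RPKM in Shaziling, a ratio of 1.77. FBXO32 (atrogin-1), the other well-known ligase of muscle atrophy, was at 18.97 and 14.5 RPKM, a ratio of 0.767. TRIM54 had a ratio of 1.38, and the called gene was STUB1, a ligase that works with chaperones, with a ratio of 2.09. Of the caspases examined, 0 of 4 were called, with a median log2 ratio of 0.63. CASP8, CASP6, CASP1 and CASP10 stayed below 2 RPKM in both libraries. The calcium-binding relatives of the calpain subunits that were found, PEF1 and SRI, had ratios of 2.08 (called) and 1.77.

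**Figure D4:**
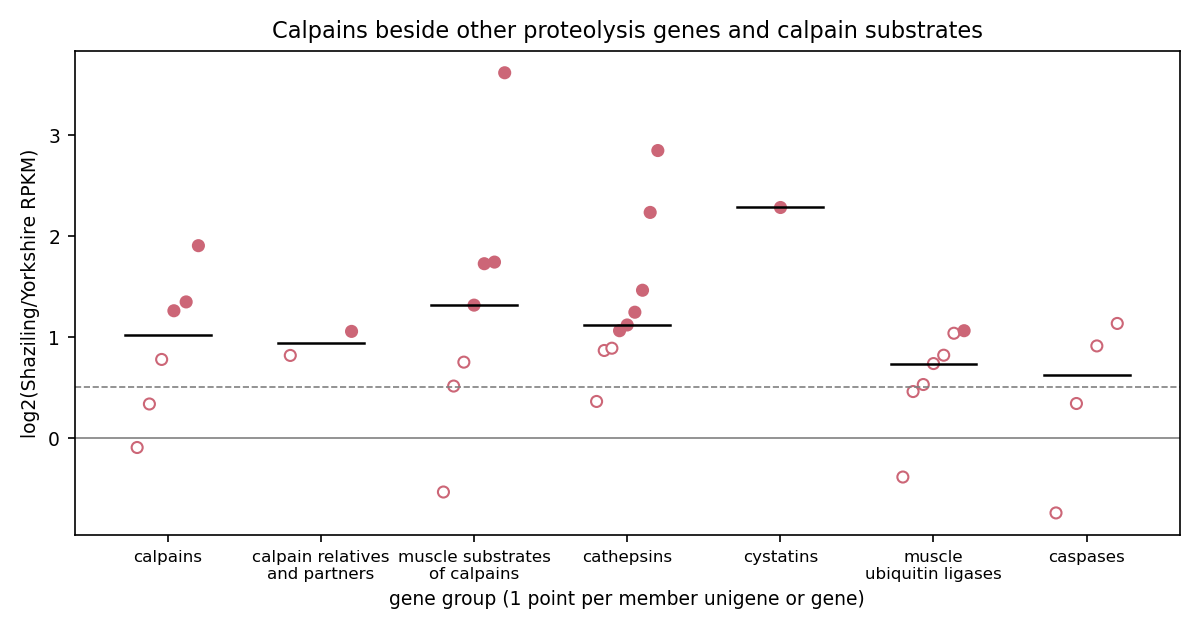
Log2 ratio of Shaziling to Yorkshire RPKM (y axis) for the 6 calpain unigenes and for the found genes of 6 other groups (x axis); filled points passed a ratio of 2 with an adjusted p of at most 0.05, black bars are medians, and the dashed line is the median of all unigenes (0.51). The calpains range from -0.09 (CAPN3 contig_317) to 1.91 (CAPN5 contig_64503).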

How the data were processed

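RNA of the LM of both breeds was sequenced by the authors on an Illumina instrument, and the reads were assembled de novo with CLC Genomics Workbench and matched to protein databases. The deposited table holds read counts (whole numbers, not normalized; the counting program is not given in the sources used here) and RPKM values computed by the authors with Qualimap. The submitters' processing notes also list CASAVA 1.8, TopHat2 2.0.6 and mm10, a mouse build. Whether the RNA of the 3 pigs of a breed was pooled or their reads were merged is not given in the sources used here, and a breed is treated as 1 library. Since 1 tab is missing between the column names, the values were assigned in the order of the names. The number of per-sample columns not used was 0.

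The 65535 RPKM values of each library corresponded to 1 library total, which was used in the tests. Gene symbols came from pig RefSeq protein accessions (Sscrofa11.1), matched without the version, for 5698 unigenes and 4484 symbols. The matched protein's length was read from the table as the number after the accession. No coordinates or sequences were used. Members and gene lists were chosen with earlier results of these data known. Every member is reported. Of each list, up to 4 genes with the highest mean RPKM are named, and a gene with several unigenes is represented by the one with the highest mean RPKM. One gene planned for the lists was left out of all their counts and is not reported here. Marker lists are given by the summed RPKM of the genes found. With 2 libraries, no likeness of pattern between genes was computed.

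Intervals of ratios are exact (Clopper-Pearson), those of odds ratios exact conditional. The binomial test was tested on simulated data: of 200 of 65535 unigenes changed 3-fold, each with 30 or more expected reads over both libraries, 78.0% were recovered, and 2 of 65335 unchanged unigenes were called. The simulated counts held Poisson error only and the same totals as the test. They therefore say nothing of the variation between pigs, of the scaling or of the error rate of the calls reported here. Scaling alternatives used edgeR 4.0.16 (TMM) and DESeq2 1.42.0 (size factors). The software was R 4.3.3 and Python 3.11.15 with pandas 2.3.3 and scipy 1.17.1.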

Additional observations from a re-analysis of the deposited data

How the results depend on the processing

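The 3 calpain unigenes called higher in Shaziling were 1 after rescaling to the same RPKM sum, to a median log2 ratio of 0, with TMM scaling, with DESeq2 size factors, with a fold of 3 and after summing the unigenes of a gene, and 0 with library totals without the 2 mitochondrial unigenes. These scalings called 10.9% to 16.1% of all unigenes higher in Shaziling, and a fold of 3 called 19.0%. With a fold of 1.5, 4 were called, beside 27.6% of all unigenes. With a false discovery rate of 0.01 the count was 3, beside 17.5% of all unigenes. It was also 3 with the minimums of 1 RPKM, 20 reads and 300 bp, beside 34.7%, 30.4% and 26.8% of the unigenes tested. None of these settings called a calpain unigene higher in Yorkshire, beside 4.22% to 17.5% of the unigenes tested. No such share is given for the summed genes. The 13 genes of the other lists, whose alternatives were chosen after seeing the data, were 7 under the same RPKM sum, the median log2 ratio of 0, TMM and DESeq2 size factors, 6 without the mitochondrial unigenes and with a fold of 3, and 19 with a fold of 1.5. The shares of all unigenes given above for these settings apply here too. Without the mitochondrial unigenes, 3 genes of these lists were called higher in Yorkshire, beside 17.5% of all unigenes. The ratio of CAPN6 contig_4056 fell below 1 under the same RPKM sum (0.938), the median log2 ratio of 0 (0.991), TMM (0.933) and DESeq2 size factors (0.938). In these settings it did not pass the false discovery rate in the binomial test. Without the mitochondrial unigenes it was also below 1 (0.769) and did pass. CAPN2 no longer passed the false discovery rate without the mitochondrial unigenes (ratio 1.04). For CAPN5, a pseudocount of 1 lowered the log2 fold changes from 1.26 to 0.55 and from 1.91 to 0.71.

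No paired analysis was possible because each breed has 1 column. Leaving out a replicate, the ratio of calpain to calpastatin and members chosen by match descriptions, which the table lacks, could not be run. The number of reads limits the CAPN5 values, and the spread between pigs is unknown for all.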
